A study of Monodelphis domestica with 6 samples.

Results

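The 9 listed genes of retinoic acid synthesis, clearance, binding and reception were looked up by symbol among the 35665 genes of the deposited tables of the opossum *Monodelphis domestica*, and 6 of them had a row. These are ALDH1A2 and ALDH1A3 (synthesis), CRABP1 and CRABP2 (binding), and RARA and RARB (receptors). CYP26A1, CYP26B1 and RARG had no row under those symbols and were skipped, although a row that could be tied to CYP26A1 by its gene number is described apart from the 6 members. RNA was sequenced from 2 libraries of neonatal skin fibroblasts (neoSFs), which are wild-type primary cultures of female pups, one from each of the inbred strains FD2M1 and LSD1, and from 4 libraries of induced pluripotent stem cells (monoiPSCs). The monoiPSCs were made from neoSFs of both strains with episomal plasmids encoding human OCT4, SOX2, NANOG, KLF4, LIN28 and cMYC, with mp53DD and EBNA1 plasmids beside them, and each strain gave a line that was sampled at passage 15 and passage 25. The neoSFs grew in a medium with fetal bovine serum. The monoiPSCs grew without feeders in a medium with N-2 and B-27 plus supplements, human LIF, bFGF and the ROCK inhibitor Y27632. The paper does not give the vitamin A content of either medium. The comparison of both groups asks how the genes of the pathway differ between the parental and the reprogrammed cells.

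Retinoic acid is made from vitamin A. Retinol is taken up, stored as esters or oxidized to retinal, and retinaldehyde dehydrogenases such as ALDH1A2 and ALDH1A3 then turn retinal into retinoic acid in an irreversible step. Cellular retinoic acid-binding proteins carry the acid to the nucleus or to the CYP26 enzymes that degrade it, and in the nucleus it binds the receptors RARA, RARB and RARG, which work as partners of the RXR receptors on DNA. In the embryo the pathway sets the position of cells along the body axis, in part through HOX genes. In cultures of pluripotent cells retinoic acid is widely used to induce differentiation.

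The total count was 14278794 to 16982978 in the neoSF libraries and 28684754 to 35564261 in the monoiPSC libraries. The neoSFs were read in-house with short single-end reads and the monoiPSCs by a sequencing service with longer paired-end reads, so an effect of the platform, of the medium or of the depth cannot be told apart from that of the cell type. Levels are given as normalized read counts (NRC), the linear form of the deposited log2 values, and are compared between libraries for the same gene and not between genes, because no transcript length was used. Because the samples are bulk RNA, fewer cells of a type and less RNA per cell cannot be told apart either. Each group carried the markers of its label: the summed NRC of the 7 fibroblast markers with a row (8 were listed) was 1458710 and 1639440 in neoSFs and 2515 to 7550 in monoiPSCs, while that of the 5 pluripotency markers was 111 and 156 in neoSFs and 8647 to 12499 in monoiPSCs. POU5F1, SOX2, NANOG and LIN28A each had an NRC of at most 4.75 in neoSFs. Of the keratinocyte list only TP63 had a row, and it was at 0 in all monoiPSCs, as was GATA4 of the endoderm list in all 6 libraries. Markers of other cells were present in monoiPSCs: the skeletal muscle list summed to 1341 to 10354, the melanocyte list, nearly all of it DCT, to 4599 to 15537, and the endoderm list, nearly all of it FOXA2, to 1121 to 3837. In neoSFs these lists summed to 334 and 1180, 231 and 384, and 447 and 1105 (there mostly GATA6). The neural list summed to 23.2 and 24.4 in neoSFs and 100 to 455 in monoiPSCs, and the mesoderm, endothelial and leukocyte lists to between 5.98 and 212 in all libraries, with CDH5 at most 1.26. The part of such cells in the results was not tested.

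All 6 members had an NRC of at least 20 in every library of at least 1 group and were tested. CRABP1 and CRABP2 were higher and ALDH1A3 and RARB lower in monoiPSCs when both an adjusted p of 0.05 or less and a 2-fold difference were asked for (edgeR quasi-likelihood, adjusted by Benjamini-Hochberg over the 13072 genes tested), while ALDH1A2 and RARA did not pass both thresholds. The median log2 fold change of the 6 members was 0.29, beside 0.08 over all genes tested. Of all genes tested 24.3% were called higher, 21.6% lower and 45.9% in either direction, and with 6 members nothing is read from the share of 4. The groups did not overlap for any of the 6 members, 3 higher and 3 lower, which was also the case for 73.2% of all genes tested (36.1% higher and 37.1% lower). What set the members apart from each other was the direction and the size of the change.

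**Figure D1:**
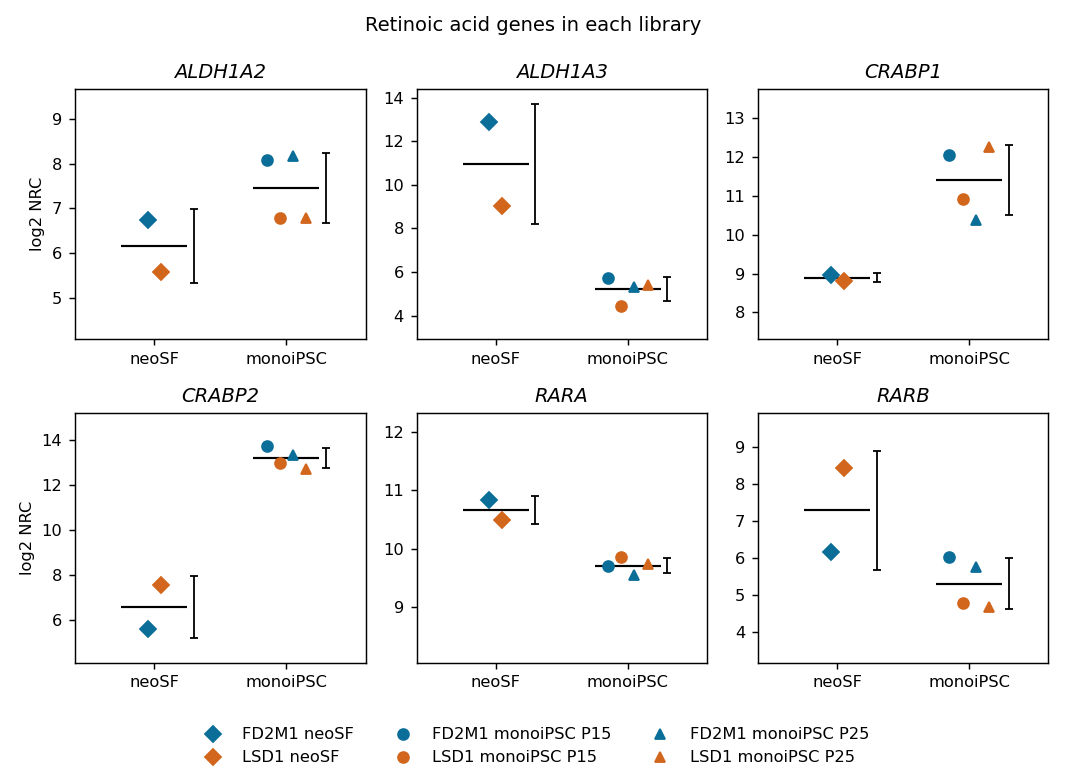
Deposited log2 NRC of the 6 members (vertical axis, a different range in each panel) in the 2 neoSF and 4 monoiPSC libraries. Points are libraries, horizontal lines are group means and bars are ± 1 SD. ALDH1A3 and RARB fell from neoSFs that themselves differed 14.9-fold and 4.85-fold, and CRABP1 and CRABP2 rose in all 4 monoiPSC libraries.

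Of the retinaldehyde dehydrogenases, ALDH1A3 was far higher in neoSFs. ALDH1A3 (gene 100616732) lies on chromosome 1 of MonDom5, and its NRC was 7691 and 515 in neoSFs of FD2M1 and LSD1. The FD2M1 line had 53.3 and 40.0 and the LSD1 line 21.5 and 41.7 at passages 15 and 25. Both neoSF libraries lay above every monoiPSC library, but they differed 14.9-fold from each other, and 2.88% of the 11799 genes expressed in neoSFs differed at least 4-fold between these libraries. Its log2 fold change was -6.61 ± 0.92 (SE, adjusted p = 0.000706, edgeR). Its size rested on the FD2M1 neoSFs: it was -3.61 without that library and -7.50 without the LSD1 neoSFs, -5.91 with strain as a block and -5.74 by limma, and it kept its call in each case. Against the neoSFs of its own strain, ALDH1A3 was 144-fold and 192-fold lower in the FD2M1 line and 24.0-fold and 12.3-fold lower in the LSD1 line. Each strain had 1 neoSF library, so a test of the difference between these changes takes its spread only from the passages. That difference between the strains, 3.32 on the log2 scale, did not pass the test (edgeR interaction, adjusted p = 0.172), although DESeq2 called it (adjusted p = 1.46e-05).

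ALDH1A2, the main retinoic acid-producing enzyme of the early embryo, went the other way. ALDH1A2 (gene 100019941, chromosome 1) had an NRC of 107 in the FD2M1 and 47.5 in the LSD1 neoSFs. The values in monoiPSCs were 271 and 291 in the FD2M1 line and 110 and 109 in the LSD1 line at passages 15 and 25. The LSD1 monoiPSCs thus lay just above the FD2M1 neoSFs, and the gap between the strains was of similar size in both cell types, 2.25-fold in neoSFs and 2.54-fold in monoiPSCs. The change of 1.44 ± 0.60 (SE) in log2 units was not called without the strains in the fit (edgeR, adjusted p = 0.0683). With strain as a block it was 1.40 and was called (adjusted p = 0.00394), and each of the 4 monoiPSC libraries was 2.30-fold to 2.71-fold above the neoSFs of its own strain. DESeq2 called it as well (adjusted p = 0.0303), as did edgeR without LSD1 at passage 25 (adjusted p = 0.0474). Without the FD2M1 neoSFs the change was 2.14 (adjusted p = 0.0566) and without the LSD1 neoSFs 0.98 (adjusted p = 0.282), while without FD2M1 at passage 15 or 25 it was 1.23 and 1.18 (adjusted p = 0.133 and 0.141).

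The ratio of both enzymes shifted toward ALDH1A2. The log2 NRC of ALDH1A2 minus that of ALDH1A3, in which library scaling cancels and gene length cancels between libraries, was -6.17 and -3.44 in the FD2M1 and LSD1 neoSFs. In monoiPSCs this difference was 2.35 and 2.36 at passage 15 and 2.86 and 1.39 at passage 25 for FD2M1 and LSD1. The groups differed by 7.04 on the log2 scale, from -4.80 ± 1.93 (SD, n = 2) to 2.24 ± 0.61 (SD, n = 4). The exact two-sided permutation p was 0.0667, the smallest that 15 splits allow. It treats the libraries as independent, as do the edgeR fits without a block, although the monoiPSCs are passages of 1 line per strain. Nothing beyond the lack of overlap, which 73.2% of the single genes tested also showed, is read from it. The difference was 5.68 without the FD2M1 neoSFs and 8.40 without the LSD1 neoSFs.

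**Figure D2:**
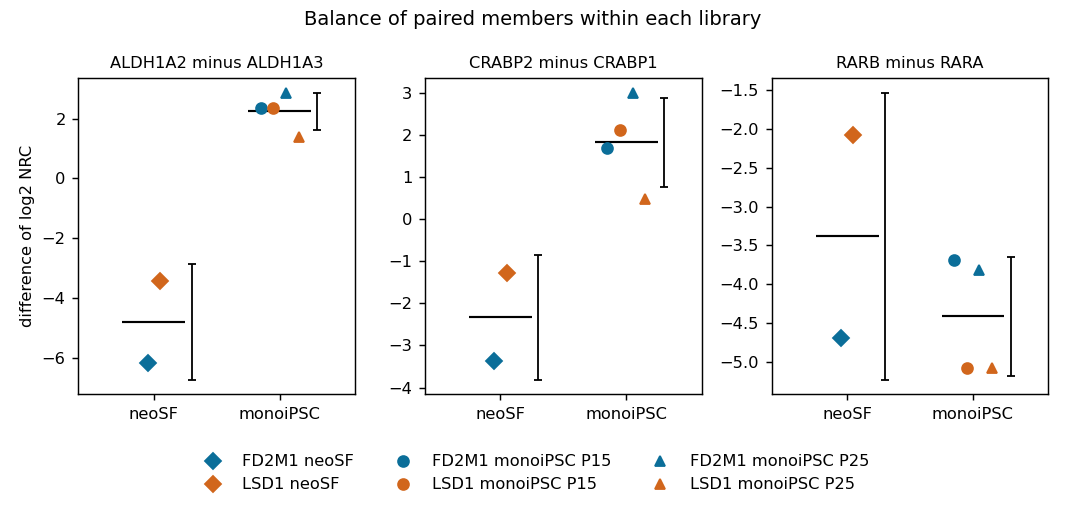
Difference of the log2 NRC of 2 members within the same library (vertical axis), for the enzymes, the binding proteins and the receptors. Points are libraries, lines group means and bars ± 1 SD. The first and second panel separate neoSFs from monoiPSCs, and in the third the groups overlap.

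The opossum annotation also names ALDH1A4, ALDH1A5 and ALDH1A6, close relatives of ALDH1A1 that neighbour it in the RefSeq annotation of mMonDom1.pri. They were added after their values were seen, and reads of such similar copies may be shared between them. All 3 moved with ALDH1A3: the NRC of ALDH1A6 (gene 100020879, chromosome 6) was 698 and 242 in the FD2M1 and LSD1 neoSFs and 9.47 to 17.6 in monoiPSCs, or -4.88 ± 0.47 in log2 units (SE, adjusted p = 0.000137, edgeR). ALDH1A4 and ALDH1A5 had an NRC of 20.6 to 83.5 in neoSFs and at most 7.86 in monoiPSCs, with adjusted p of 0.00427 and 0.00207. In each of these copies the FD2M1 neoSFs had the higher value, as for ALDH1A3. Without the FD2M1 neoSFs ALDH1A4 lost its call (adjusted p = 0.0510), the log2 fold change of ALDH1A5 was -3.72 in place of -5.04 and that of ALDH1A6 was -3.92. ALDH1A1 itself had an NRC of at most 2.60 in any library and was not tested.

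Both retinoic acid-binding proteins rose. CRABP2, which delivers retinoic acid to the receptors (gene 100018489, chromosome 2), had an NRC of 48.5 in the FD2M1 and 186 in the LSD1 neoSFs. The values in monoiPSCs were 13724 and 10619 in the FD2M1 line and 8280 and 6824 in the LSD1 line at passages 15 and 25. The lowest monoiPSC library was far above both neoSF libraries, and the order of the strains was opposite in the groups. CRABP2 had a log2 fold change of 6.46 ± 0.67 (SE, adjusted p = 0.000192, edgeR), or 5.83 without the FD2M1 and 7.78 without the LSD1 neoSFs. Against its own neoSFs, CRABP2 was 283-fold and 219-fold higher in the FD2M1 line and 44.5-fold and 36.7-fold higher in the LSD1 line. The change in LSD1 minus that in FD2M1 was -2.64 on the log2 scale, which edgeR did not call (adjusted p = 0.168) and DESeq2 did (adjusted p = 0.000118).

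CRABP1, which binds retinoic acid in the cytoplasm (gene 100012644, chromosome 1), was at nearly the same level in both neoSFs, with an NRC of 503 and 451 in FD2M1 and LSD1. The monoiPSCs lay above them and were spread more widely: 4248 and 1328 in the FD2M1 line and 1926 and 4889 in the LSD1 line at passages 15 and 25. Its change in log2 units was 2.80 ± 0.59 (SE, adjusted p = 0.00462, edgeR), and it kept its call under all 12 alternatives, with values from 2.47 to 3.04. Between the passages CRABP1 fell 3.20-fold in the FD2M1 line and rose 2.54-fold in the LSD1 line, on 1 library each. Opposite changes of at least 2-fold in both lines were found in 54 of 12252 genes, or 0.441%. At passages 15 and 25 the skeletal muscle list summed to an NRC of 2202 and 1341 in the FD2M1 line and 5006 and 10354 in the LSD1 line, and the neural list to 455 and 167 and to 218 and 100. CRABP1 and the muscle list were both highest in LSD1 and lowest in FD2M1 at passage 25 and were in opposite order at passage 15, and the neural list was lowest where CRABP1 was highest. The part of these cells in CRABP1 was not tested.

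CRABP2 rose by more than CRABP1. The log2 NRC of CRABP2 minus that of CRABP1 was -3.38 and -1.28 in the FD2M1 and LSD1 neoSFs, and 1.69, 2.10, 3.00 and 0.48 in FD2M1 and LSD1 at passage 15 and in FD2M1 and LSD1 at passage 25. The means differed by 4.15 on the log2 scale (exact two-sided permutation p = 0.0667, the smallest possible), by 3.10 without the FD2M1 neoSFs and by 5.20 without the LSD1 neoSFs. As for the enzymes, nothing beyond the lack of overlap is read from this p. Among the monoiPSCs CRABP1 had the wider range, 3.68-fold against 2.01-fold for CRABP2.

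Both measured receptors were lower in monoiPSCs, RARA by a fitted change under 2-fold and RARB unevenly. RARA, the widely expressed receptor (gene 100015353, chromosome 2), had an NRC of 1822 and 1439 in the FD2M1 and LSD1 neoSFs. The values in monoiPSCs were 833 and 750 in the FD2M1 line and 925 and 855 in the LSD1 line at passages 15 and 25, so that the libraries of each group were close together. Its change of -0.86 ± 0.16 (SE, adjusted p = 0.00262, edgeR) passed the p threshold and not the 2-fold threshold, and it lay between -0.996 and -0.671 under all alternatives. Against the neoSFs of its own strain, RARA was 2.19-fold and 2.43-fold lower in the FD2M1 line at passages 15 and 25. In the LSD1 line it was 1.56-fold and 1.68-fold lower. This difference between the strains was not called (edgeR interaction, adjusted p = 0.722).

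RARB, whose gene is itself a classical target of retinoic acid (gene 100024675, chromosome 8), had an NRC of 70.6 in the FD2M1 and 342 in the LSD1 neoSFs. The values in monoiPSCs were 64.5 and 53.4 in the FD2M1 line and 27.3 and 25.3 in the LSD1 line at passages 15 and 25. The FD2M1 neoSFs were only just above the FD2M1 monoiPSCs at passage 15, while the LSD1 neoSFs were far above all others. Its log2 change of -2.19 ± 0.65 (SE, adjusted p = 0.0203, edgeR) rested on that library: without the LSD1 neoSFs it was -0.60 (adjusted p = 0.469), and without the FD2M1 neoSFs -2.90 (adjusted p = 0.00437). Without LSD1 at passage 15 the call was also lost, with a log2 fold change of -2.03 (adjusted p = 0.0547). Within the strains RARB was 12.5-fold and 13.5-fold lower in the LSD1 line, and 1.09-fold and 1.32-fold lower in the FD2M1 line. The change in LSD1 minus that in FD2M1, -3.46 on the log2 scale, was not called by edgeR (adjusted p = 0.201) and was called by DESeq2 (adjusted p = 0.00881). Of all genes tested, edgeR called 0.0841% for a change that differs between the strains, and 9.13% had an unadjusted p under 0.05.

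The order of the strains in RARB was reversed between the cell types, with LSD1 4.85-fold higher in neoSFs and lower in monoiPSCs. The log2 NRC of RARB minus that of RARA was -4.69 and -2.07 in the FD2M1 and LSD1 neoSFs and -5.08 to -3.69 in the monoiPSCs. These values overlapped, and the difference of -1.04 between the groups was not larger than the spread (exact two-sided permutation p = 0.400).

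For clearance, the row LOC100023867 (chromosome 1 of MonDom5) has the gene number that the study's supplementary tables describe as cytochrome P450 26A1. CYP26A1 degrades retinoic acid and is induced by it. The row was added after the list was set and with its change known, and is not among the members. It had an NRC of 0 and 31.4 in neoSFs of FD2M1 and LSD1, and in the monoiPSCs 100 and 140 for FD2M1 and 145 and 62.2 for LSD1 at passages 15 and 25. All monoiPSC libraries lay above both neoSF libraries. The log2 change was 2.85 ± 0.99 (SE, adjusted p = 0.0380, edgeR). Against the neoSFs of its own strain, the LSD1 line was 4.62-fold and 1.98-fold higher at passages 15 and 25. For the FD2M1 line the fold is not determined, because its neoSFs had 0 counts. Without FD2M1 at passage 15, LSD1 at passage 15 or FD2M1 at passage 25 the call was lost (adjusted p = 0.0603, 0.0811 and 0.0740) while the log2 change was about as large, at 2.89, 2.70 and 2.72. By limma the log2 change was 4.24. Without the FD2M1 neoSFs it was 1.92, and without the LSD1 neoSFs the remaining neoSF library had 0 counts.

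The other genes of the pathway were taken from a list of 45 genes, of which 35 had a row and 25 were tested. Of these 25, 9 were called higher and 5 lower, beside 24.3% and 21.6% of all genes, with a median log2 fold change of 0.38. They are shown by role with the members.

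**Figure D3:**
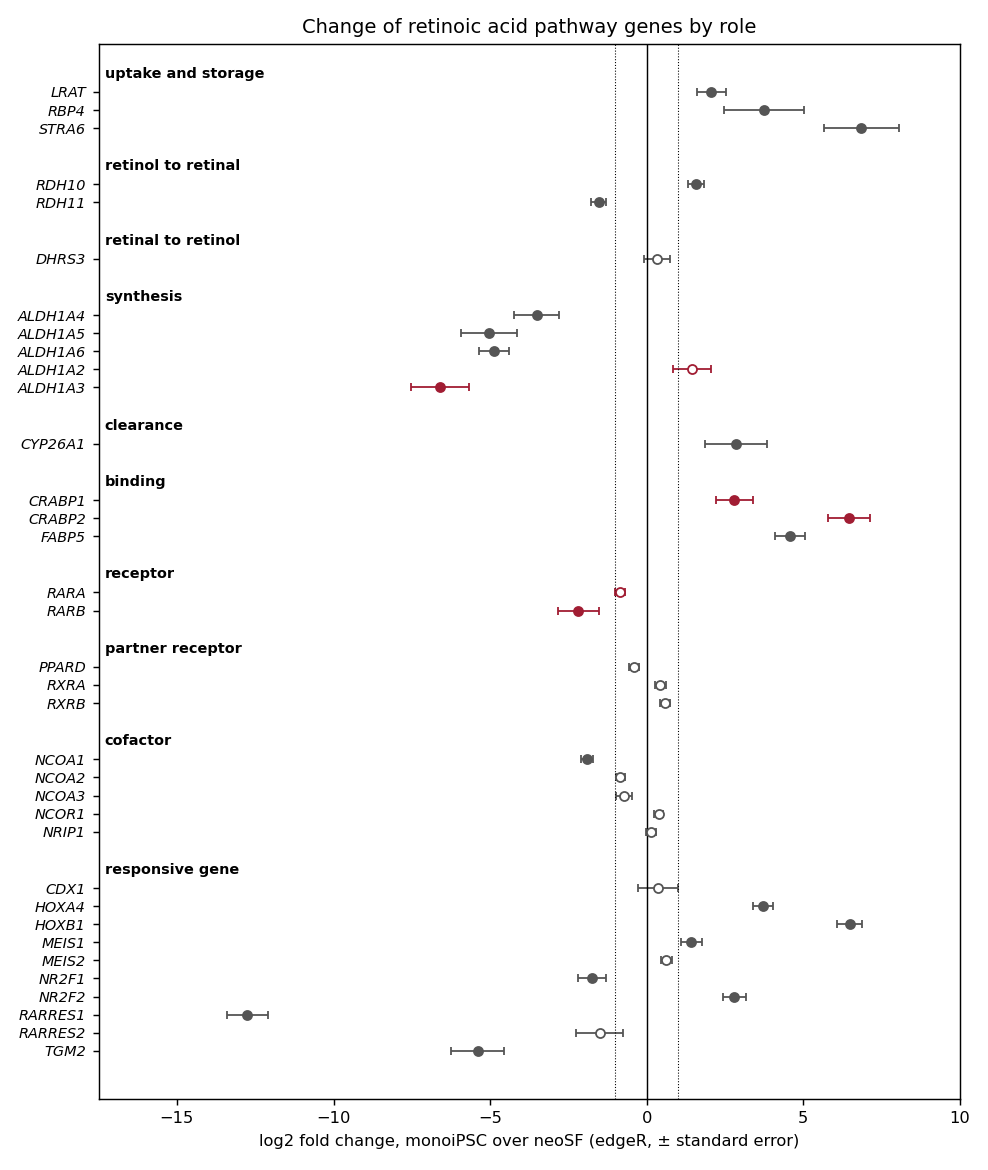
Log2 fold change of monoiPSCs over neoSFs (horizontal axis, edgeR, bars ± 1 standard error) for the members (red) and other genes of the pathway (grey), grouped by role. Filled points passed an adjusted p of 0.05 and a fold change of 2, and the dotted lines mark 2-fold. The 3 tested genes of uptake and storage all lie to the right, beside 24.3% of all genes tested that were called higher. STRA6, RARRES1, ALDH1A4 and ALDH1A5 have a group at low or near 0 counts, and CYP26A1 had 0 counts in the FD2M1 neoSFs, so that their positions are not well determined. The grey points include CYP26A1 and ALDH1A4 to ALDH1A6, which were added after their values were seen.

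Of 7 listed genes of retinol uptake and storage, 6 had a row and 3 were tested. All 3 were called higher in monoiPSCs, beside 24.3% of all genes tested, and with 3 genes nothing is read from this share. STRA6 passed the expression filter only through its monoiPSC values. STRA6, the membrane receptor through which cells take up retinol, was at the floor of 3 counts in neoSFs and had an NRC of 39.5 to 177 in monoiPSCs, so that their mean was at least 18.0-fold higher than an NRC of 5.85, the value of 3 counts in the FD2M1 neoSFs. LRAT, which esterifies retinol for storage, had 58.3 and 63.0 in neoSFs and 132 to 367 in monoiPSCs (log2 fold change 2.05, adjusted p = 0.00635, edgeR).

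RBP4, the carrier of retinol in blood, was called with less certainty. Its NRC was 133 and 115 in neoSFs and 258 to 993 in 3 of the monoiPSC libraries, while LSD1 at passage 25 stood at 4451. The change of 3.74 in log2 units (adjusted p = 0.0353, edgeR) was 2.29 without that library (adjusted p = 0.0159). The call was lost with strain as a block (3.45, adjusted p = 0.0518), with limma (2.79, adjusted p = 0.0626), without the FD2M1 neoSFs (3.86, adjusted p = 0.120) and without the LSD1 neoSFs (3.66, adjusted p = 0.135). Among the monoiPSCs, the skeletal muscle list (10354), the endoderm list (3837) and the mesoderm list (174) were each highest in LSD1 at passage 25, and the other lists were not. The endoderm list was nearly as high in FD2M1 at passage 25 (3750). The part of such cells in RBP4 was not tested.

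Of the enzymes between retinol and retinal, RDH10, which makes retinal in the embryo, rose by 1.57 on the log2 scale (adjusted p = 0.00168, edgeR), with an NRC of 366 to 597 in neoSFs and 1128 to 1675 in monoiPSCs. RDH11, a related dehydrogenase, fell by 1.53 (adjusted p = 0.00130). DHRS3, which returns retinal to retinol and is itself induced by retinoic acid, had 1313 and 562 in FD2M1 and LSD1 neoSFs and 678 to 1541 in monoiPSCs, which overlapped (log2 fold change 0.33, adjusted p = 0.500).

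FABP5, a fatty acid-binding protein that can carry retinoic acid to PPARD, rose with the CRABPs, from an NRC of 587 and 188 in neoSFs to between 8105 and 9574 in monoiPSCs. Its log2 fold change was 4.58 (adjusted p = 0.000206, edgeR), or 5.62 without the FD2M1 neoSFs. PPARD, RXRA and RXRB, the tested partner receptors, stayed under 2-fold from their neoSF level and none was called, although RXRB passed the p threshold with a log2 fold change of 0.59 (adjusted p = 0.0146). Of 5 cofactors only NCOA1, a coactivator of nuclear receptors, was called, with a log2 fold change of -1.91 (adjusted p = 0.000125, edgeR). NCOA2 and NCOA3 were also lower and passed the p threshold and not the 2-fold threshold. Their log2 fold changes were -0.85 (adjusted p = 0.00157) and -0.74 (adjusted p = 0.0360). The corepressor NCOR1 (log2 fold change 0.38, adjusted p = 0.0662) and NRIP1 (0.14, adjusted p = 0.462) did not pass the p threshold.

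Of 13 listed genes known to respond to retinoic acid in other systems, 11 had a row and 10 were tested, of which 4 were called higher, 3 lower and 3 were not called, beside 24.3% higher and 21.6% lower of all genes tested. The 2 tested HOX genes, HOXB1 and HOXA4, rose most. HOXB1 had an NRC of 54.6 and 19.0 in neoSFs and 2650 to 3213 in monoiPSCs (log2 fold change 6.48 ± 0.41 SE, adjusted p = 2.84e-05, edgeR) and HOXA4 rose by 3.71 (adjusted p = 8e-05). In monoiPSCs the highest library was 1.21-fold above the lowest for HOXB1 and 1.40-fold for HOXA4, beside 1.23-fold for RARA and 2.01-fold to 3.68-fold for the other members. Without the FD2M1 neoSFs the log2 fold change of HOXB1 was 7.40.

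MEIS1, a partner of HOX proteins, and the nuclear receptor NR2F2 rose by 1.43 (adjusted p = 0.00856) and 2.79 (adjusted p = 0.000504, edgeR) on the log2 scale. TGM2, a transglutaminase, went the other way, with an NRC of 1012 and 10018 in the FD2M1 and LSD1 neoSFs and 56.8 to 195 in monoiPSCs (log2 fold change -5.40, adjusted p = 0.00119, edgeR; -2.93 without the LSD1 neoSFs and -6.25 without the FD2M1 neoSFs). As for RARB, the LSD1 neoSFs were the highest library. RARRES1 fell from an NRC of 7519 and 6164 to 3.37 in FD2M1 at passage 15 and 0 in the other monoiPSCs (adjusted p = 1.53e-05), where its fitted fold change rests on 6 counts. NR2F1, a nuclear receptor related to NR2F2, had a log2 fold change of -1.74 (adjusted p = 0.0118), which was -1.16 and not called without the LSD1 neoSFs (adjusted p = 0.107). CDX1, MEIS2 and RARRES2 were not called, although MEIS2 passed the p threshold with a log2 fold change of 0.63 (adjusted p = 0.0208, edgeR).

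**Figure D4:**
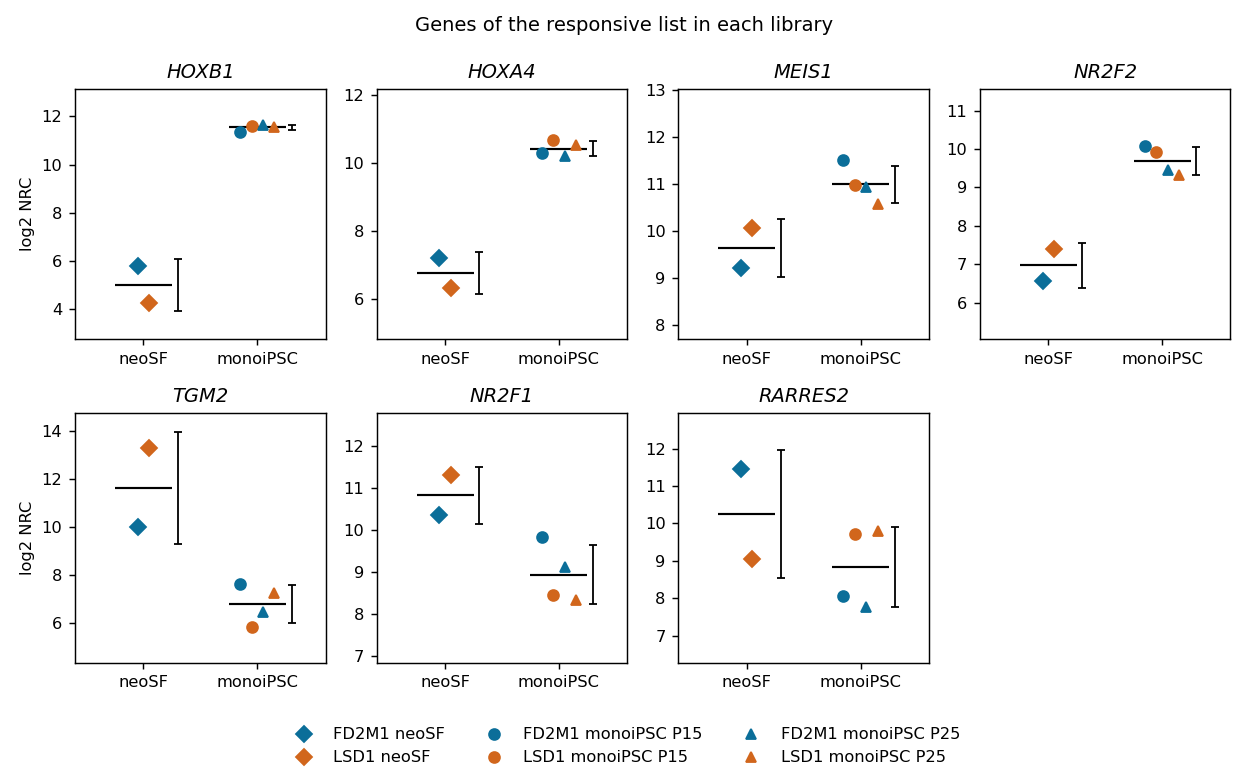
Deposited log2 NRC (vertical axis, a different range in each panel) of 7 genes of the responsive list in each library. Points are libraries, lines group means and bars ± 1 SD. The 2 HOX genes are tightly grouped in monoiPSCs, TGM2 differs 9.90-fold between the neoSF libraries, and RARRES2 is ordered by strain in opposite ways in neoSFs and monoiPSCs.

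The 10 genes of the list that had a row and were not tested were RBP2, RBP7, TTR, BCO1, BCO2, DHRS9, ALDH1A1, ALDH8A1, RXRG and STRA8. Among them BCO2, an enzyme that cleaves carotenoids, had an NRC of 15.1 to 26.4 in monoiPSCs and at most 3.16 in neoSFs.

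With 1 line per strain, strain and line cannot be told apart. Within the monoiPSCs the lines did not overlap in 4 of the 6 members, beside 43.5% of all genes expressed in monoiPSCs. ALDH1A2, CRABP2 and RARB were higher in the FD2M1 line and RARA in the LSD1 line. The log2 difference of LSD1 minus FD2M1 was -1.35 (standard error 0.28) for ALDH1A2, -0.68 (0.13) for CRABP2, -1.15 (0.39) for RARB and 0.17 (0.17) for RARA. None passed the correction (edgeR with passage as a covariate, adjusted p of 0.176, 0.160, 0.284 and 0.673), and edgeR called 0 of 12252 genes for line (0.0%), with 1736 (14.2%) at an unadjusted p under 0.05, none by limma and 191 called by DESeq2. DESeq2 called ALDH1A2 (adjusted p = 0.0364), and gave CRABP2 an adjusted p of 0.0282 with a difference under 2-fold. The summed NRC of the fibroblast list was also ordered by line. It was 7550 and 5601 in the FD2M1 line and 2515 and 3517 in the LSD1 line at passages 15 and 25. Within the list PDGFRB went the other way, with 159 and 243 in the FD2M1 line and 405 and 410 in the LSD1 line. THY1 overlapped between the lines, and the other markers of the list with a row were ordered as the sum. The part of this list in the differences of the members was not tested.

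Between passage 25 and passage 15 no member was called. ALDH1A2 was the most stable, with a change of 1.07-fold in the FD2M1 line and 1.01-fold in the LSD1 line, and RARA and RARB changed at most 1.21-fold in either line. CRABP2 was lower at passage 25 in both lines, by 1.29-fold and 1.21-fold (edgeR with strain as a covariate, adjusted p = 0.520). For passage edgeR called 0 of 12252 genes (0.0%), with 1145 (9.35%) at an unadjusted p under 0.05, none by limma and 119 called by DESeq2.

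The member with the widest range among the monoiPSCs was CRABP1. Over the 6 libraries, the named genes with the most similar log2 values after centring were CBLN1, FGF5 and GCNT1, with a root mean square difference of 0.15, 0.24 and 0.34 among 11382 genes searched. CBLN1, a secreted synapse organizer, had an NRC of 22.4 and 15.8 in the FD2M1 and LSD1 neoSFs, 175 and 64.8 in the FD2M1 line and 83.6 and 228 in the LSD1 line at passages 15 and 25. FGF5, a growth factor of the epiblast after implantation, had 9.76 and 7.92 in neoSFs, 51.0 and 24.0 in the FD2M1 line and 33.6 and 97.5 in the LSD1 line. These genes had lower counts than CRABP1 and were chosen for their likeness in the same libraries.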

How the data were processed

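RNA of 2 neoSF and 4 monoiPSC libraries was analysed. Reads were aligned to MonDom5 and RefSeq transcripts with StrandNGS, filtered on quality and mapping, and counted per gene by the authors. The deposited raw counts were not whole in 86.8% of the values above 0 (tolerance 1e-06), and were treated as estimated counts and rounded. The deposited log2 values are these counts after DESeq normalization by the authors, with values below 1 normalized read set to 0. A gene was tested if its NRC reached 20 in every library of either group, with edgeR 4.0.16 (R 4.3.3) on TMM-scaled counts, without a block. The standard errors given for edgeR were derived from its test, as the absolute log2 fold change over the square root of the F statistic. They are not a separate estimate of error. DESeq2 1.42.0 and limma 3.58.1 on the log2 values were alternatives, beside RLE scaling, other filters, strain as a block and leaving out each library. Each monoiPSC line comes from neoSFs of its strain, which pairs the libraries. The difference between strains correlated weakly between neoSFs and monoiPSCs (r = 0.11 at passage 15 and 0.03 at passage 25 over 10979 genes). Line and passage were tested in the monoiPSCs with the other as covariate, and the interaction of strain and group in all libraries.

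The fits were first tested on simulated counts, in which 200 genes were changed 4-fold. For monoiPSCs against neoSFs edgeR called 150 of these and 7 unchanged genes. DESeq2 called 176 and 37, and limma 144 and 5, so DESeq2 called the most unchanged genes there. For line and passage only edgeR was tested in this way. The labels name no separate cultures within a line, so p-values measure the spread between these libraries, which differ in strain and passage. The members and lists were chosen with earlier results of these data known. Some genes of the pathway are not reported here and enter no count of the pathway list. The named genes are the members, every pathway gene with a row by role, and the 3 named genes with the smallest root mean square difference from the most variable member. CYP26A1 was identified by gene number in the supplementary tables, and 5 of the 6 members' gene numbers were found in RefSeq for mMonDom1.pri. Since the files use MonDom5, no coordinates are given. Floors cover counting error only.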

Additional observations from a re-analysis of the deposited data

Results flagged for a closer look

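RARRES2, a gene of the responsive list, moved in opposite directions in the strains. Its NRC fell from 2830 in the FD2M1 neoSFs to 267 and 219 in the FD2M1 line, and went from 527 in the LSD1 neoSFs to 836 and 894 in the LSD1 line at passages 15 and 25. The change in LSD1 minus that in FD2M1 was 4.24 on the log2 scale and passed the correction (edgeR interaction, adjusted p = 0.0311), while limma called 0 genes for this difference. Each strain had 1 neoSF library.

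In 35 tested genes of the pathway, the 4 monoiPSC libraries were searched for a library far from the other 3. For NRIP1 the gap of FD2M1 at passage 15 to the next library was 0.843 of the range, at an NRC of 1213 against 979 to 1012. For RARRES1 the ratio was 1, because FD2M1 at passage 15 had 6 counts and the others 0. Chance flags about 1 in 20 such groups.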

How the results depend on the processing

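The calls of ALDH1A3, CRABP1 and CRABP2 held under all 12 alternatives, RARA stayed lower and under 2-fold in each, and the number of DE genes, 6000, stayed within 1.5 times (6012 with strain as a block, which changed no other member's call than that of ALDH1A2). The members called lower numbered 1 to 2 when a library was left out, with 1 without the LSD1 neoSFs or without LSD1 monoiPSCs at passage 15, both times because RARB was lost. The cause was not tested in the following cases. DESeq2 called 191 genes for line, 119 for passage and 306 for a change that differs between strains, where edgeR called 0, 0 and 11 and limma 0 for the last. Leaving out 1 monoiPSC library and the covariate gave 0, 46, 6 and 0 genes for line and 0, 0, 221 and 11 for passage (without FD2M1 and LSD1 at passage 15 and FD2M1 and LSD1 at passage 25, in that order), on 1 residual degree of freedom. In the comparison of monoiPSCs with neoSFs, 3 values changed sign when a library was left out: RARB minus RARA lay between -2.35 and 0.27, DHRS3 between -0.13 and 1.07 and RARRES2 between -2.23 and 0.17. RARRES2 was called by DESeq2 (adjusted p = 0.0452) and without the FD2M1 neoSFs was at 0.17. Differences of members and CYP26A1 by line and passage, none of them called by edgeR, also changed sign when a library and the covariate were left out. For line, CRABP1 was at 0.37 and between -0.51 and 1.36, and CYP26A1 at -0.31 and between -0.94 and 0.30. For passage, CRABP1, ALDH1A2, ALDH1A3, CRABP2, RARB and CYP26A1 changed sign. The neoSF libraries are shallower, and STRA6 was at or under 3 counts in both.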
